A study of Homo sapiens with 2 samples.

Results

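The brightest transcripts of untreated Y79 cells were described on the arrays of a study of Ep-CAM silencing in retinoblastoma. The members were chosen by the processed signal of the untreated array, which is the brightness of a spot after background subtraction, in arbitrary units. Outlier spots were left out, the spots of a probe were averaged, names beginning with RPL or RPS (cytoplasmic ribosomal proteins) were dropped, and the brightest probe of each gene name was kept. The 200 brightest of 30879 gene names are the members. The order on the untreated array is therefore the rule itself and not a finding, and since probes differ in how well they hybridize, it does not rank the transcripts by abundance.

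Y79 cells come from a long-established human retinoblastoma line and grow unattached. RNA of untreated Y79 cells was hybridized to 1 array, and RNA of Y79 cells taken 48 h after transfection with Ep-CAM siRNA to the other. Neither array is labelled as scrambled siRNA, and the paper's text describes the untreated cells as free of siRNA. Transfection and Ep-CAM silencing therefore cannot be told apart when the arrays are compared. The paper states that both cultures had been exposed to the DNA demethylating agent AZC, which the sample labels do not mention. Both arrays lay on the same slide and carried 41000 transcript probes of 60 bases each. The log2 ratio given for a probe is siRNA-treated over untreated, after each array had been divided by the median signal of its transcript probes (47.8 untreated, 49.0 siRNA-treated). A probe was well above background, or saturated at the limit of the scanner, where at least 50% of its spots were marked so in the scanner output, and dim where it was not well above background. Saturation on both arrays left no ratio, and saturation on 1 array only a bound. With 1 array per condition there was nothing to test the conditions with, no value could be checked in a replicate, and the precision is limited by this number of arrays. In RNA from whole cultures, fewer cells with a transcript and less of it per cell cannot be told apart.

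Ep-CAM itself, under its older symbol TACSTD1, was read by 1 probe printed once. It had a signal of 15.6 untreated and 11.96 after siRNA and was dim on both arrays, so that these arrays did not check the siRNA label by its target. The paper reports Ep-CAM expression after AZC. It also reports a fall at 48 h of siRNA in Ep-CAM mRNA by quantitative PCR and in protein by western blot.

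A small set of genes supplies much of the messenger RNA of any dividing cell. These encode the translation machinery, the cytoskeleton, histones, ubiquitin, chaperones, splicing factors and the subunits of the respiratory chain. Markers of a lineage add to this common core. Retinoblastoma cells are known for photoreceptor and neuronal transcripts, and the photoreceptor program rests on the transcription factors CRX, OTX2, NRL and NEUROD1 and on the proteins of the light response.

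The names of the members needed reading with the probe sequences. Of the 200 members, 120 carried a gene symbol found in a table of current names. Another 35 had only a probe number, 14 an Ensembl transcript, 12 a TIGR consensus, 10 a cDNA or EST accession and 9 a LOC or similar number. The filter on RPL and RPS names did not reach such entries. By their description, their accession or a probe match (at least 30 overlapping bases with 90% identity to a probe named RPL or RPS), 22 of the 80 members without a gene symbol carried ribosomal protein sequence, 6 of them with such a probe match. This count is a lower limit, since probes with only a number could not be assigned to a gene beyond matches on the array. It leaves out 2 members with a gene symbol, FAU among them, whose description names a ribosomal protein and which the filter on names did not reach either.

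A_24_P272590 and A_32_P49392 lack a gene symbol and show this. They are printed 5′ to 3′ as in the array files with the ribosomal probes they match, in lower case, with the longest shared stretch of each pair in capitals.
A_24_P272590: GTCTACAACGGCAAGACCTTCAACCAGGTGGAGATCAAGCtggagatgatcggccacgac
RPS15: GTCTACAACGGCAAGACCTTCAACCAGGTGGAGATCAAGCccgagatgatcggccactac
A_32_P49392: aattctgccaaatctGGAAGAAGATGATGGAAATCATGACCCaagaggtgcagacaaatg
RPS3A: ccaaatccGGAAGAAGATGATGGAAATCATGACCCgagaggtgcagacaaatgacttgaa
A_24_P272590 and RPS15 were identical at 57 of 60 bases, and A_32_P49392 and RPS3A at 51 of 53 overlapping bases. In the array design (build hg17), A_24_P272590 lies on the minus strand at chr5:163960679-163960738 and A_32_P49392 on the minus strand at chr2:160371805-160371864. The probes they match lie on the plus strand at chr19:1391214-1391368 (a span longer than the probe) and chr4:152381759-152381818. A_24_P272590 had a signal of 30156 untreated and 27861 after siRNA. A_32_P49392 had 21735 and 18328. Transcripts with near-identical sequence can share signal on such probes, and how much each copy gave was not tested.

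The alpha globins, the oxygen carriers of red blood cells, were members as a pair with matching probes. The probes of HBA2 (plus strand, chr16:163560-163619) and HBA1 (plus strand, chr16:167382-167441) share a stretch, printed here because transcripts of either gene may bind both probes. All of it is in capitals.
Shared by HBA2 and HBA1: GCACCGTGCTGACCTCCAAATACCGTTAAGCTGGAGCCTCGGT
The stretch has 43 bases, and 47 of the 49 bases over which the probes overlap were identical. The HBA2 probe had a signal of 69478 untreated and 65835 after siRNA, and the HBA1 probe 63960 and 64454. All 4 values were saturated, so neither probe has a ratio. The other HBA2 probe of the array, which lies elsewhere in the gene, had 159 and 165. The beta globin HBB had 336 and 1235, a log2 ratio of 1.84. The 7 erythroid genes with a ratio, HBB among them, had a median log2 ratio of -0.080, and only HBB reached a log2 ratio of 1. Of the 10 erythroid genes on the array 9 were well above background in untreated cells. Since 70.1% of all probes were too, nothing is read from this count. The signals of the list summed to 136116 and 133802, most of which came from the alpha globin pair. The reading of alpha globin thus depended on the probe, and whether the cells held its transcript was not tested.

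HMGN2, a nucleosome-binding protein, and C15orf21 formed the other pair of members with matching probes, identical at 42 of 45 overlapping bases. Both probes were saturated on both arrays. In all, 24 members matched a probe of another name. Among them were NME2P1, whose probe was identical to that of NME2 over 41 of 41 overlapping bases, and HIST2H3PS2, identical to HIST2H3A over 40 of 40. Such probes may take up signal of the relatives, which was not tested.

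Base composition set a few members apart. The share of G and C bases was 75% or more in 10 of the 200 members (5.00%) and in 184 of all 41000 probes (0.449%). All such probes (100%) were well above background in untreated cells, against 70.1% of all probes. Genes of restricted expression, which the brightness of these probes would place in Y79 cells, were among the 10. They are printed with the longest run of G and C in capitals.
DRD4: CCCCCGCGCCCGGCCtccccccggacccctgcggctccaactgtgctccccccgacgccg
HES7: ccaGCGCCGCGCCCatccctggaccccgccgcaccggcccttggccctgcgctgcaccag
HOXA3: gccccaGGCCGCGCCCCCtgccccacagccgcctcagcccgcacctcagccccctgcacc
HCN2: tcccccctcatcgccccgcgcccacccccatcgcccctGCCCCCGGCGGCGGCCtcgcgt
The DRD4 probe (plus strand, chr11:630136-630195) belongs to the dopamine receptor D4 and had a signal of 60656 untreated and 59814 after siRNA. Another DRD4 probe, with 60% G and C, had 177 and 189. HES7 (minus strand, chr17:7965812-7965871), a transcriptional repressor of the segmentation clock, had 50248 and 48411. HOXA3 (minus strand, chr7:26923159-26923218), a patterning gene, had 26981 and 20229, while its other probe was dim on both arrays. HCN2 (plus strand, chr19:567656-567715), a pacemaker channel of neurons and heart, had 26312 and 18124. LBX1, whose member probe has 55% G and C and is not among the 10, was added for its other probe. This homeobox gene of muscle and spinal cord development was saturated on both arrays, while its other probe, which shares 36 of 36 overlapping bases with it, was dim on both arrays. No identity was read from DRD4, HES7, HOXA3, HCN2 or LBX1.

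The members made up 0.488% of the probes and 34.1% of the summed signal of the untreated array. On the siRNA-treated array they held 33.3%. The 227 probes named RPL or RPS held 12.1% and 12.7%. The signals of the members ran from 101135 down to 19591. At the edge of the rule, EIF3S4 (19807 untreated and 15197 after siRNA), ENST00000246019 (19686 and 17596) and FBL (19591 and 15735) were the last inside. ENST00000356104 (19454 and 11940), DIAPH1 (19184 and 16455) and A_24_P383940 (19174 and 19901) were the first outside.

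The 10 brightest members were HIST1H2AM, A_24_P67308, A_24_P247014, LOC440093, LOC441136, CR621923, AL359650, HIST3H2A, UBB and HIST1H2AJ. All 10 were saturated in untreated cells. LOC440093 is described as similar to the replacement histone H3.3B, and an accession of LOC441136 is one of the ribosomal protein gene RPL35A. CR621923 is a cDNA accession with no gene name here, and whether its probe matches ribosomal RNA was not tested. The saturation touched 43 members on the untreated array, 31 of them on both arrays and 12 on the untreated array only. A further member was saturated on the siRNA-treated array only.

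**Figure D1:**
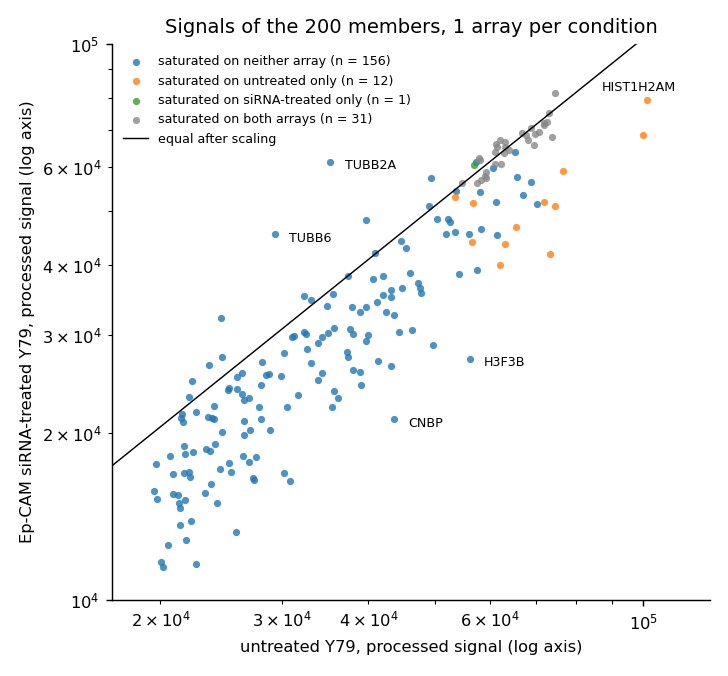
Processed signal of each of the 200 members on the untreated array (horizontal, log axis) and the Ep-CAM siRNA-treated array (vertical, log axis), coloured by saturation, with a line where the scaled signals are equal. Of the 156 members saturated on neither array, 141 lie below the line (85 are below 0 after quantile normalization), and TUBB2A and TUBB6 lie farthest above it.

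Histones package DNA. Of 78 genes on the array with a histone name 19 were members, among them 12 of the 22 of the H2A family, and 9 of the 19 lay in the HIST1 cluster on chromosome 6. HIST1H2AM had a signal of 101135 untreated and 79239 after siRNA, at least 1.31-fold lower since the untreated value was saturated. HIST3H2A had 73116 and 75106, both saturated. H3F3B, which encodes the replacement histone H3.3, had 56012 and 27125, a log2 ratio of -1.08. Of the 10 histone-named members with a ratio, 9 lay below 0, with a median of -0.50 (-0.30 after quantile normalization), and HIST2H4A had 22250 and 24752. Most of these genes have close relatives, and their probes can share signal.

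Translation supplied the next group. Of 13 genes on a list of elongation factors and ribosome-associated proteins 6 were members, led by EEF1A1, which delivers aminoacyl-tRNA to the ribosome and had 67957 untreated and 67233 after siRNA, both saturated. GNB2L1 (RACK1), a scaffold on the small ribosomal subunit, had 65265 and 64067, and EEF2, the translocase, had 57329 and 61415. EEF1G had 49009 and 51108. The 5 members of this list with a ratio, among them GNB2L1 and BTF3, which are not elongation factors, had a median of -0.062, which turned to 0.14 after quantile normalization. EEF2 and EEF1G lay above 0 and the others with a ratio below it.

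Of 31 initiation genes 7 were members. EIF1, which guides start codon choice, was saturated on both arrays (68643 and 70749). EIF3S12 (EIF3K) had 39920 untreated and 29957 after siRNA, EIF4G2 38889 and 25681, and EIF3S6 (EIF3E) 27536 and 18089. The 6 with a ratio all lay below 0, from -0.64 to -0.20, with a median of -0.43 (-0.12 after quantile normalization, with 5 below 0).

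Ubiquitin, the tag for protein breakdown, was represented by 9 of 52 genes of the ubiquitin and proteasome list. UBB, a polyubiquitin gene, was saturated on both arrays (72395 and 72450). FAU, which encodes a ubiquitin-like protein fused to the ribosomal protein S30, had 61130 untreated and 51877 after siRNA. The 7 with a ratio had a median of -0.27 (-0.019 after quantile normalization). Of 39 chaperone genes 5 were members. SERBP1, an RNA-binding protein on that list, had 61957 and 40071, at least 1.58-fold lower. The chaperonin subunit TCP1 had 47147 and 37097, NPM1 37568 and 30723, and the mitochondrial HSPE1 27746 and 22223. The 4 chaperone members with a ratio lay between -0.38 and -0.10, and 3 of them stayed below 0 after quantile normalization.

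Splicing factors and hnRNPs, which process pre-mRNA, gave 11 of 65 genes. HNRPA3 was saturated on both arrays (61246 and 66115). SFRS7 had 47615 untreated and 35717 after siRNA, SFRS5 44356 and 30290, and the poly(C)-binding protein PCBP1 43488 and 32500. The 10 with a ratio all lay below 0, from -0.99 to -0.38, with a median of -0.56 (-0.26 after quantile normalization, again with 10 below 0). The lowest was SFRS2, a serine/arginine-rich splicing factor, with 25771 and 13249.

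Of 85 nuclear genes of the respiratory chain and mitochondrial carriers 8 were members. COX6A1, a subunit of cytochrome c oxidase, was saturated on both arrays (71695 and 72050), while its other probe had 54.6 and 58.5. The ADP/ATP carrier SLC25A5 had 65408 and 46794, at least 1.43-fold lower. COX8A had 43111 and 36119, and ATP5G3, of the ATP synthase, was saturated on both arrays (60934 and 60771). The 5 with a ratio all lay below 0, with a median of -0.29 (-0.019 after quantile normalization, with 3 below 0). None of the 15 listed genes of the mitochondrial genome had a probe under its symbol, but AY029066, described as humanin and placed on the mitochondrial chromosome, was a member with 41944 and 38193.

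The cytoskeleton gave 11 of 46 genes, and its members spread more widely than the other groups. ACTB, cytoplasmic actin, had 68726 untreated and 56442 after siRNA, which is -0.32 in log2 ratio, and -0.22 and 0.049 by its other measured probes. TUBA1, an alpha tubulin, was saturated on both arrays (57806 and 62432), and ACTG1 had 52056 and 48499. TUBB2A, a beta tubulin of neurons, had 35208 and 61427, a log2 ratio of 0.77. DYNLL1, a dynein light chain, lay at the other end with 30789 and 16378, a log2 ratio of -0.95. The 9 with a ratio had a median of -0.14, which turned to 0.093 after quantile normalization. Of the 4 tubulin-named members with a ratio, TUBB2A, TUBB6 and TUBB lay above 0 under every scaling, and TUBA6 lay at -0.073, which turned to 0.22 after quantile normalization.

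Chromatin genes gave 6 of 34 genes. RAN, the GTPase of nuclear transport, was saturated on both arrays (63016 and 65283), as was HMGN2 (61339 and 65286). H3F3A had 61478 untreated and 45324 after siRNA, and the variant histone H2AFZ had 58151 and 46407. The 4 chromatin members with a ratio had a median of -0.42 (-0.26 after quantile normalization). Of 37 signalling genes 3 were members. GNAS, a G protein subunit, had 35548 and 35587, the GTPase RHOA 33020 and 26650, and the nucleoside diphosphate kinase NME1 30231 and 16953. IER5 was the single member of 22 immediate early genes (23305 and 18678), and its other probe had 166 and 184. No gene of glycolysis (19 on the array), of the secretory pathway and vacuolar ATPase (48) or of the redox, iron and stress list (29) was a member.

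**Figure D2:**
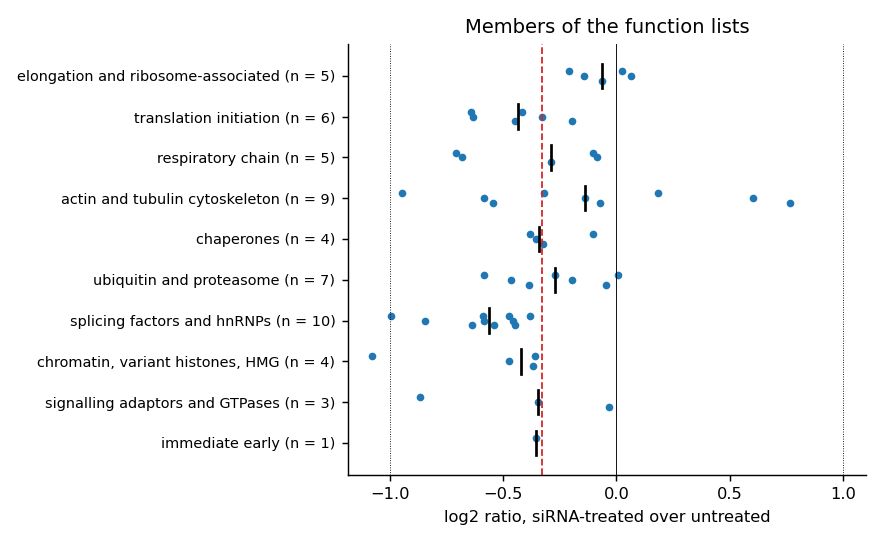
Log2 ratio (siRNA-treated over untreated, horizontal) of the members of each function list that have a ratio, 1 point per member, with the median of each list as a black bar and the median of all 156 members with a ratio (-0.33) as a dashed line. Splicing factors lie below 0 throughout, and the cytoskeleton list spans -0.95 to 0.77.

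The lists of functions and cell types held 70 of the 200 members, and few of these were markers of a lineage. The other 50 members with a gene symbol were on no list, so that lineage genes among them are not covered by these counts. None of the 50 photoreceptor genes with a probe was a member, and 35 were well above background in untreated cells. Since 70.1% of all probes were too (counted by probe and not by gene), nothing particular to the list is read from this count. The median signal over the list was 31.7 untreated and 33.6 after siRNA. The 31 genes of the list with a ratio had a median log2 ratio of -0.14, with 20 below 0. The brightest gene of the list was GNB1, a G protein subunit that many cell types express, with 3549 and 3318. Rhodopsin, the light receptor of rods, was read by 3 probes, with 1257 and 1762, 77.6 and 88.7, and 41.6 and 60.6. The blue cone opsin OPN1SW had 546 and 445.

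None of the transcription factors of the photoreceptor program came near the edge of the rule. CRX had 86.8 untreated and 68.7 after siRNA, and OTX2 had 70.4 and 52.0. NRL and NEUROD1 were dim on both arrays. Of the light response genes, cone arrestin ARR3 had 82.0 and 72.5, and rod transducin GNAT1 had 64.6 and 74.4. GNGT2 had 31.3 and 24.3, and PDE6G had 39.6 and 36.7. Recoverin (RCV1), GNGT1 and PDE6H were dim on both arrays. No photoreceptor gene of the list was thus among the members.

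Neuronal genes contributed 2 of 77, STMN1 and TUBB2A. STMN1 (stathmin), which destabilizes microtubules and is also abundant in dividing cells, was saturated on both arrays (69630 and 68804). Proliferation genes contributed 4 of 40, which were STMN1, HMGN2, H2AFZ and TUBB. TUBB had 49229 untreated and 57355 after siRNA. These 5 genes on the neuronal and proliferation lists are also part of the common cell machinery, so that they mark no lineage alone.

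Of 17 fibroblast and stroma genes the galectin LGALS1 was a member, with 24593 untreated and 27306 after siRNA. It is expressed in many cell types. Of the 17 genes 15 were well above background in untreated cells, from which nothing is read about stroma since 70.1% of all probes were too. Next in signal were the calcium-binding S100A6 (1173 and 979) and the surface protein THY1 (1019.5 and 1163). The collagen COL1A1 had 85.6 and 90.7. M14087, described as a gene for a related lectin, had 39703 and 48287. LTB, which encodes lymphotoxin beta of lymphocytes and is on none of the lists, had 24458 and 32194. Of the 20 immune genes 19 were well above background in untreated cells, among them B2M, which most cell types express (7145 and 8495), HLA-DRB1 (4726 and 5599.6), the lysozyme gene LYZ (3045 and 799) and the leukocyte gene PTPRC (26.0 and 30.2). No immune expression is read from this count, with 70.1% of all probes well above background.

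No gene of the remaining lists was a member. Their gene counts were 20 for Müller glia and astrocytes, 15 for pigment epithelium, 25 for other retinal neurons, 21 for retinal progenitors, 15 for epithelium, 10 for endothelium, 20 for immune cells and 12 for lens. Many of these genes, like 70.1% of all probes, were well above background in untreated cells, from which no cell type is read. This held for 19 of the 20 glial genes, with APOE, a lipid carrier, the brightest (7039.6 untreated and 3770.5 after siRNA). VIM had 2313 and 2101, GFAP 103 and 102, and RLBP1 95.6 and 110.0, while GLUL was dim on both arrays. Of the 15 pigment epithelium genes 12 were well above background, with the keratin KRT8 the brightest (589 and 648), and RPE65, of the visual cycle, was dim on both arrays. Of the 15 epithelial genes 13 were, with KRT8, KRT19 (517 and 523) and KRT14 (508 and 429) the brightest and KRT18 at 65.9 and 57.9. Of the 10 endothelial genes 7 were, with the adhesion molecule ESAM the brightest (344 and 351), and PECAM1 was dim on both arrays. None of these markers reached the members, and neither did those of photoreceptors.

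**Figure D3:**
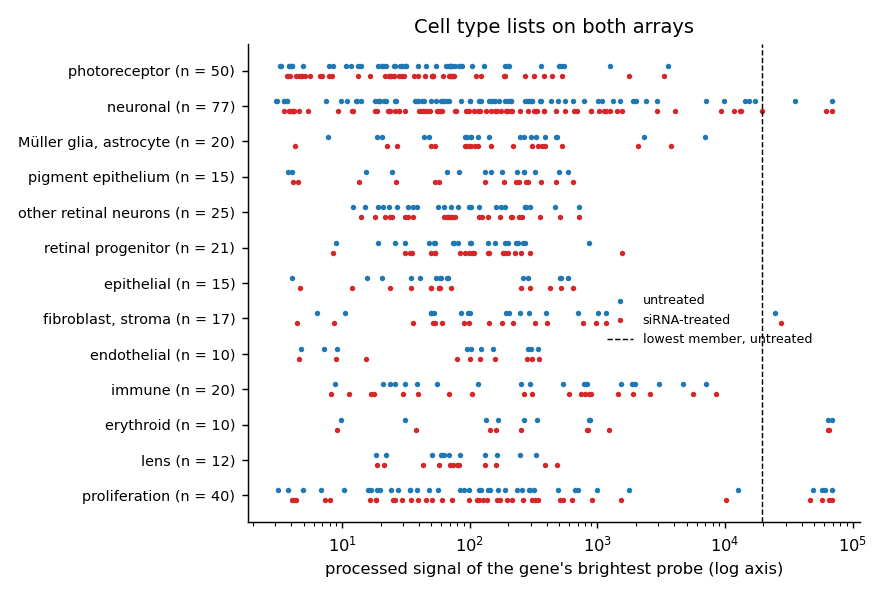
Processed signal (horizontal, log axis) of the brightest probe of each gene of the 13 cell type lists on the untreated (blue) and the siRNA-treated array (red), with the lowest untreated signal of a member (19591) as a dashed line. Only genes of the neuronal, fibroblast, erythroid and proliferation lists lie beyond the line in untreated cells.

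Applying the same rule to the siRNA-treated array gave 187 of the 200 members again (93.5%). The 13 that left ranked between 204 and 276 there, and PABPN1, a poly(A)-binding protein, ranked lowest. The 13 names that entered included MARCKS, an actin regulator with 17305 and 19640, and KPNA2, a nuclear import receptor with 17112 and 19933 (MARCKS and KPNA2 were picked after their values had been seen).

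A ratio was available for 156 members, a bound for 13, and none for the 31 that were saturated on both arrays. The median log2 ratio of the 156 was -0.33, with an SD of 0.30, and 141 lay below 0 (85 after quantile normalization). Over all 26976 probes measured on both arrays the median was -0.026 and the SD 0.33. The untreated signal chose the members and is part of the ratio, so the difference between these medians is a description.

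The lower level was shared by other bright probes. When the measured probes were split into 20 bins by mean brightness, the median log2 ratio lay between -0.037 and 0.056 in the 18 dimmer bins, at -0.093 in the next and at -0.28 in the brightest. In that bin 84.4% of 1349 probes lay below 0. The 25 measured RPL or RPS genes as bright as the members, which the rule left out, had a median of -0.20 (23 below 0), which turned to 0.055 after quantile normalization (7 below 0). After quantile normalization, which gives both arrays the same distribution of signals, the median of the members was -0.028, with 85 below 0, and under some scaling 56 of the 156 members changed sign or came to 0. Under all 5 scalings 85 members lay below 0 and 15 above. The level of the members against the rest of the array thus depended on the scaling.

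**Figure D4:**
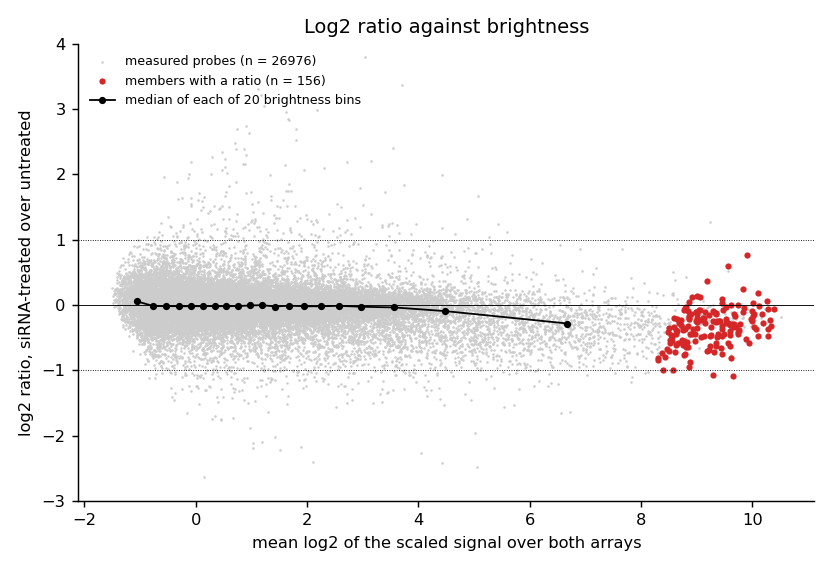
Log2 ratio (siRNA-treated over untreated, vertical) against the mean log2 scaled signal of both arrays (horizontal) for 26976 measured probes (grey) and the 156 members with a ratio (red), with the median of each of 20 brightness bins (black) and dotted lines at 1 and -1. The bin medians stay near 0 and reach -0.28 in the brightest bin, where the members lie.

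At a log2 ratio of -1 or less, 2 members were lower, H3F3B and CNBP, and none after quantile normalization (-0.85 and -0.80 for these 2). Of the 29413 transcript probes that 1 or both arrays measured well above background, 0.925% were that low, and over the brightest bin 1.85%. No member reached a log2 ratio of 1, against 1.26% of all those probes and 0.222% of the brightest bin. Nothing about the members is read from these shares, since the untreated signal chose them.

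The lowest ratios were shared out over several functions. CNBP, a nucleic acid-binding protein with zinc knuckles, had 43523 untreated and 21146 after siRNA, a log2 ratio of -1.08. After H3F3B, CNBP and SFRS2 came A_24_P255786 (22489 and 11615), DYNLL1, NME1 (log2 ratio -0.87), PABPN1 (20159 and 11484), A_24_P603890 (49528 and 28808), A_24_P125311 (20008 and 11703) and CUGBP2, a regulator of splicing (21802 and 12805). Among the bounds, AL359650 was at least 1.79-fold lower.

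The highest ratio was that of TUBB2A. It was followed by TUBB6, another beta tubulin, with 29260 untreated and 45477 after siRNA, a log2 ratio of 0.60. LTB had 0.36, M14087 0.25, TUBB 0.19 and THC2313287 0.13. HIST2H4A and LGALS1 followed at 0.12 each, then GLTSCR2 at 0.095 and EEF2 at 0.064. Beyond the members, the neuronal beta tubulin TUBB3 had 7119 and 13252, a log2 ratio of 0.86, while its other probe had 30.1 and 31.2. The 59 genes of the neuronal list with a ratio, TUBB2A and TUBB3 among them, had a median log2 ratio of 0.0044. No rise of neuronal genes as a group is read from the tubulins.

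Other probes of the same genes gave further readings. There were 90 members with at least 1 other probe, and in 21 of these an other probe was dim in untreated cells. Of the 174 other probes 23 were dim. Since only 70.1% of all probes were well above background, nothing is read from these counts. For 62 genes both the member probe and another had a ratio. Both lay below 0 in 47 and above 0 in 5, and the signs differed in the rest. The median was -0.34 for the member probes and -0.28 for the others. These values are after median scaling, under which 55.3% of all measured probes and 84.4% of the brightest bin lay below 0. Nothing about the members is therefore read from the count of signs. The probes of 1 gene share the RNA of the same cultures and are not replicates. The member probe of 10 genes also overlaps another probe of the same name in sequence, among them PABPN1 (46 of 47 bases identical), FAU (52 of 52), EEF1D (54 of 59) and UBE2S (45 of 46).

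Of the 10 members with the lowest ratios, H3F3B, DYNLL1, CUGBP2 and PABPN1 had another probe. The other probes of H3F3B had log2 ratios of -0.90 and -1.35, that of DYNLL1 -0.99, that of CUGBP2 -0.68 and the overlapping probe of PABPN1 -0.63, so all lay below 0. The other TUBB2A probe, in the corner of wider spread described below, had 18550 untreated and 45860 after siRNA, a log2 ratio of 1.27. The second TUBB probe had 0.52. Other probes of the alpha tubulins lay below 0 after median scaling, at -0.95, -0.59 and -0.58 for TUBA1, whose member probe was saturated, and at -0.19, -0.16 and -0.44 for TUBA6. Higher values were therefore not shared by all tubulins.

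Elsewhere the probes of a gene parted. The other probe of MBNL1, a splicing regulator, had a log2 ratio of 0.29 against -0.54 for the member probe, and that of TUBB6 -0.21 against 0.60. For PPP1R14B, an inhibitor of protein phosphatase 1, the values were 0.078 and -0.55. For HNRPU, an hnRNP, they were -1.04 and -0.54, with -0.096 at a further probe, and for SF3A3, a splicing factor subunit, -0.053 and -0.56. These are the 5 genes with the largest differences, and their values rest on the probe taken.

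**Figure D5:**
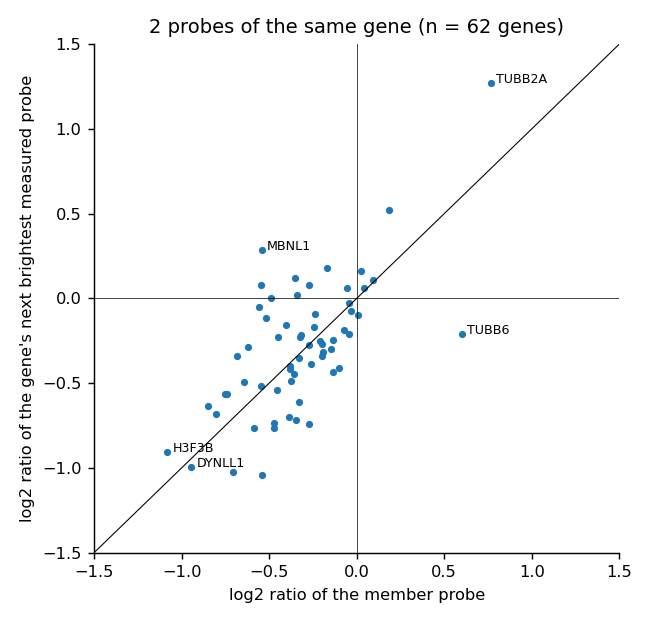
Log2 ratio (siRNA-treated over untreated) of the member probe (horizontal) and of the next brightest measured probe of the same gene (vertical) for 62 genes, with the line of equality. Most genes lie in the lower left, where both probes are below 0, while TUBB6 and MBNL1 lie away from the line.

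Repeated spots gave the technical spread. RHOA was printed at 10 spots, of which 8 could be paired, and its log2 ratio per spot ran from -0.39 to -0.27 (SD 0.036). LOC388817 was printed at 10 spots, of which 9 could be used on the untreated array. Its mean signal was 63092 with 7 of the 9 spots saturated, against 43638 on the siRNA-treated array, at least 1.48-fold lower. Over 194 probes printed at several spots, the SD of the log2 ratio among the spots of a probe was 0.14 in the median. This holds no variation between cultures. All members but RHOA and LOC388817 were printed once. The glycolysis gene GAPDH, often used as a reference, was not a member and had 249.6 and 251.2.

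Position on the array went along with the ratios. A corner of the array held 16.8% of the probes and 41 of the members, and its measured probes had a wider spread (SD 0.51) than those elsewhere (SD 0.29). The 32 members with a ratio inside the corner had a median of -0.55 and the 124 outside -0.29. In the brightest bin these medians were -0.36 and -0.26. Of the 10 lowest members, CNBP, SFRS2, A_24_P255786, NME1, PABPN1 and A_24_P125311 lay in the corner, and H3F3B, DYNLL1, A_24_P603890 and CUGBP2 outside it. Of the 10 highest, EEF2, THC2313287 and TUBB lay in the corner. So did the other probes of H3F3B at -1.35, CUGBP2 at -0.68, TUBB2A at 1.27, TUBA1 at -0.95 and TUBA6 at -0.44, and both probes of MBNL1 and of SF3A3 given above. The part of position in these ratios was not tested.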

How the data were processed

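Per the file headers, the deposited intensity values were made by the authors with Agilent Feature Extraction 9.5.3.1 (the series text names another version) as background-subtracted, detrended spot signals without scaling between arrays. The authors' table for the series holds the raw median intensity and was used as an alternative. Control and outlier spots were left out and saturated spots kept. A probe was well above background, or saturated, where at least 50% of its spots were. A ratio with 1 saturated or dim side is a bound, in which a dim side takes the lowest signal well above background. The members and gene lists were chosen with earlier results of these data known. Names were updated through RefSeq (GRCh38.p14), where 121 of 200 members matched. Genes named were the 10 brightest, lowest and highest members, those on identity lists, up to 4 per function list, the edge of the rule, repeated spots, fixed markers and up to 5 members with discordant probes. Others were added after their values were seen, among them the members with a high G and C share, LBX1, TUBB3, HBB, overlapping probes and the brightest genes of other cell type lists. The computation of ratios and calls was run on simulated data with large shifts and no dependence of the ratios on brightness or position. This checks the computation and not the values of these arrays. Tools were Python 3.11.15, pandas 2.3.3, SciPy 1.17.1, R 4.3.3 and limma 3.58.1. Alternatives covered scaling, background correction, thresholds, saturation, probe choice, list size and position.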

Additional observations from a re-analysis of the deposited data

How the results depend on the processing

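The median log2 ratio of the members stayed between -0.38 and -0.27 under 13 of 15 alternatives. It was -0.028 after quantile normalization, as that method equalizes bright probes, and -1.001 with normexp. The normexp fit on the siRNA-treated array followed 1 spot dimmer than its local background; without that spot (an alternative chosen after seeing the data) the median was -0.33. Plain normexp moved the median of all measured probes to -0.21. Members at -1 or less numbered 2 or 3 under 12 of 16 alternatives, 0 after quantile normalization, 86 with normexp, 9 among the top 400 and 6 with a ratio under 0.55. Members at 1 or more numbered 0 under 14 of 16, 1 (TUBB2A) with the mean over the measured probes of a gene, and 2 with a ratio over 1.5. The SD lay between 0.27 and 0.32 throughout. The share of members found again on the siRNA-treated array was 89% for the top 100 and 89.5 to 92.5% under the other 5 alternatives. The share of summed signal was 30.6% with normexp, with or without that spot, 30.3% in the authors' table, 23.1% for the top 100, 45.0% for the top 400 and 24.7% without genes with a saturated brightest probe. No paired analysis was possible because each condition has 1 array. Saturation limits the brightest members, for which these arrays give no ratio or only a bound.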
